A study of Rattus norvegicus with 6 samples.

Results

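The 10 genes described here make triglyceride or coat, enlarge and empty the lipid droplet that stores it in hepatocytes: Gpam, Agpat2, Lpin1, Lpin2, Dgat1, Dgat2, Plin2, Plin5, Cidec and Pnpla2. They were chosen by name, and their probes were those whose RefSeq accession in the scanner files belongs to one of them. All 10 had a probe, 15 probes in all, out of 15645 named genes and 61537 probes other than controls. Liver RNA came from 6 male Sprague-Dawley (Crl:CD(SD)) rats bought at 5 weeks of age and kept on a basal diet, with 1 Agilent array in 1 colour (Cy3) per animal. Corn oil alone went to the vehicle rats (n = 3). The other rats (n = 3) received TBBC at 300 mg/kg/day, a phenolic antioxidant in which sulfur links a pair of tert-butylated cresol rings. The liquid in which TBBC was given is not stated in the labels. The labels give 28 days in one place and 9 weeks in another as the time of dosing.

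Triglyceride is built on glycerol 3-phosphate. Acyltransferases add fatty acids to it, a lipin removes the phosphate, and a diacylglycerol acyltransferase adds the last fatty acid. The product fills droplets whose surface carries perilipins and CIDE proteins, and the lipase encoded by Pnpla2 starts its breakdown. In liver this store takes up fatty acids made there or delivered by blood and supplies lipoprotein export and oxidation, and it swells in fatty liver.

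Values are log2 signal relative to the array's 75th percentile, so 0 is the signal that 75% of probes stay below. Levels of different genes were measured with different probes and are not set against each other. All 15 probes were well above background on all 6 arrays and none was saturated. The 75th percentile of the signal lay between 465.2 and 638.2, and the number of arrays limits the precision. All 8 hepatocyte markers, albumin among them, were well above background on every array. Each group lay on a slide of its own per the file headers, so slide and treatment cannot be told apart. The labels speak of separate animals, and the p-values measure the spread between them.

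With TBBC, RNA of none of the 10 genes passed the test: 0 were higher and 0 lower at an adjusted p under 0.05 (limma, two-sided, Benjamini-Hochberg over 29326 features, n = 3 per group). Over all features 3.08% passed, 1.68% higher and 1.40% lower with TBBC, and 3.17% of the features with a gene name, so a count of 0 among 10 genes lies near the background and is no result about them. At an unadjusted p under 0.05 the members numbered 3 (Lpin2, Dgat2 and Cidec), against 23.0% of all features. The groups did not overlap for 2 genes, Lpin2 and Dgat1, both with higher values under TBBC, against 31.1% of features in either direction and 12.3% in that direction. The 10 differences, TBBC minus vehicle, ran from -0.66 to 0.91 with a median of -0.11, while the median over all features was -0.062. The adjusted p-values ran from 0.0844 to 0.991.

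**Figure D1:**
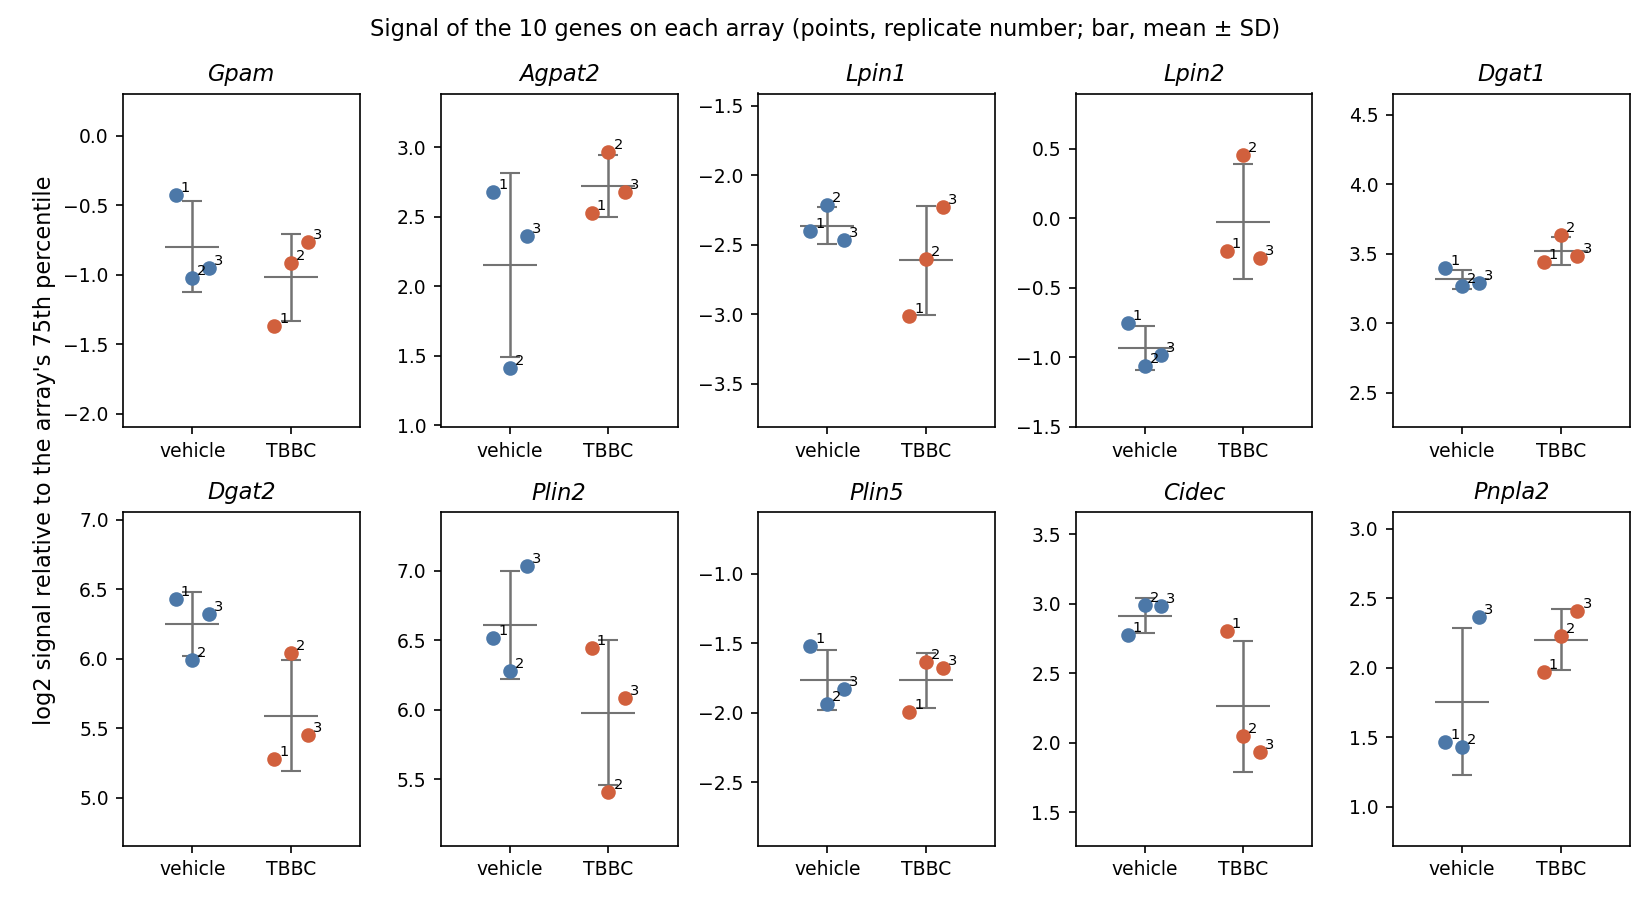
Log2 signal of the 10 genes relative to the 75th percentile of the array, for 3 vehicle and 3 TBBC arrays; each point is 1 animal with its replicate number, the long bar the group mean and the whiskers the SD, and the axes of all panels have the same length. The groups are apart for Lpin2 and Dgat1 and overlap for the other genes, and for Agpat2 vehicle replicate 2 (1.41) lies well below the others.

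The first steps of the pathway are the 2 acylations. Gpam encodes the mitochondrial enzyme that attaches the first fatty acid to glycerol 3-phosphate. In the order of replicates 1 to 3, as for all genes that follow, its values were -0.42, -1.02 and -0.95 with vehicle and -1.37, -0.92 and -0.77 with TBBC. Vehicle replicate 1 was the highest array and TBBC replicate 1 the lowest, and the groups overlapped. The log2 difference was -0.22 ± 0.22 (SE, n = 3 per group; limma adjusted p = 0.581), with a 95% interval of -0.76 to 0.32. With 1 array left out it ran from -0.35 without TBBC replicate 3 to -0.032 without vehicle replicate 1, and it was -0.044 without TBBC replicate 1.

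Agpat2 encodes the acyltransferase that adds the second fatty acid and makes phosphatidic acid. Its values were 2.68, 1.41 and 2.36 with vehicle and 2.53, 2.96 and 2.68 with TBBC. The vehicle animals differed more among themselves (SD 0.66) than the treated ones (SD 0.22), through the low vehicle replicate 2, and vehicle replicate 1 lay within the treated range. The difference was 0.57 ± 0.33 (1.49-fold, limma adjusted p = 0.338; 95% interval -0.21 to 1.36), and without vehicle replicate 2 it was 0.20.

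The lipins remove phosphate from phosphatidic acid and so make diacylglycerol, the branch point to triglyceride and phospholipid. The probe of Lpin2 gave -0.75, -1.06 and -0.98 on the vehicle arrays and -0.24, 0.45 and -0.29 on the TBBC arrays. Every treated animal was above every vehicle animal, with TBBC replicate 2 well above the other two. The means were -0.93 ± 0.16 (SD, n = 3) and -0.023 ± 0.41, a difference of 0.91 ± 0.22 or 1.88-fold. It was the largest of the 10 and missed the threshold (limma adjusted p = 0.0844), with an unadjusted 95% interval of 0.38 to 1.44. A larger absolute difference was found for 5.30% of all features. The second Lpin2 probe gave -1.95, -1.86 and -2.02 with vehicle and -1.28, -0.63 and -1.35 with TBBC, a difference of 0.85 ± 0.20 in which the groups were apart as well.

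Lpin1, the lipin that also acts in the nucleus as a partner of transcription factors of fatty acid oxidation, did not share this pattern. Its single probe gave -2.40, -2.21 and -2.47 with vehicle and -3.01, -2.60 and -2.22 with TBBC. TBBC replicates 1 and 2 lay below the vehicle range and TBBC replicate 3 within it. The difference was -0.25 ± 0.21 (limma adjusted p = 0.499; 95% interval -0.75 to 0.25). It was -0.051 without TBBC replicate 1 and -0.44 without TBBC replicate 3. Whether Lpin1 and Lpin2 respond differently was not tested.

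Dgat1 and Dgat2 encode unrelated proteins that both add the last fatty acid of triglyceride, Dgat2 being the one tied to newly made fatty acids. The Dgat1 probe with the stronger signal gave 3.40, 3.27 and 3.29 with vehicle and 3.44, 3.64 and 3.48 with TBBC. The treated values all lay above the vehicle values, by a margin that was small between vehicle replicate 1 and TBBC replicate 1. The difference was 0.20 ± 0.11 (1.15-fold, limma adjusted p = 0.318), and this SE was the lowest of the 10 genes. The second probe gave 0.29 ± 0.11.

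Dgat2 had the lowest difference of the 10. Its values were 6.43, 5.99 and 6.32 with vehicle and 5.28, 6.04 and 5.45 with TBBC. TBBC replicates 1 and 3 lay below all vehicle arrays, whereas TBBC replicate 2 lay above vehicle replicate 2, so the groups overlapped. The difference was -0.66 ± 0.23 (1.58-fold lower in the mean, limma adjusted p = 0.162; 95% interval -1.20 to -0.11). The other 2 probes of Dgat2 gave -0.65 ± 0.25 and -0.47 ± 0.26. On all 3 probes vehicle replicate 2 was the lowest vehicle array and TBBC replicate 2 the highest treated array, so the same animals stood apart on each probe.

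**Figure D2:**
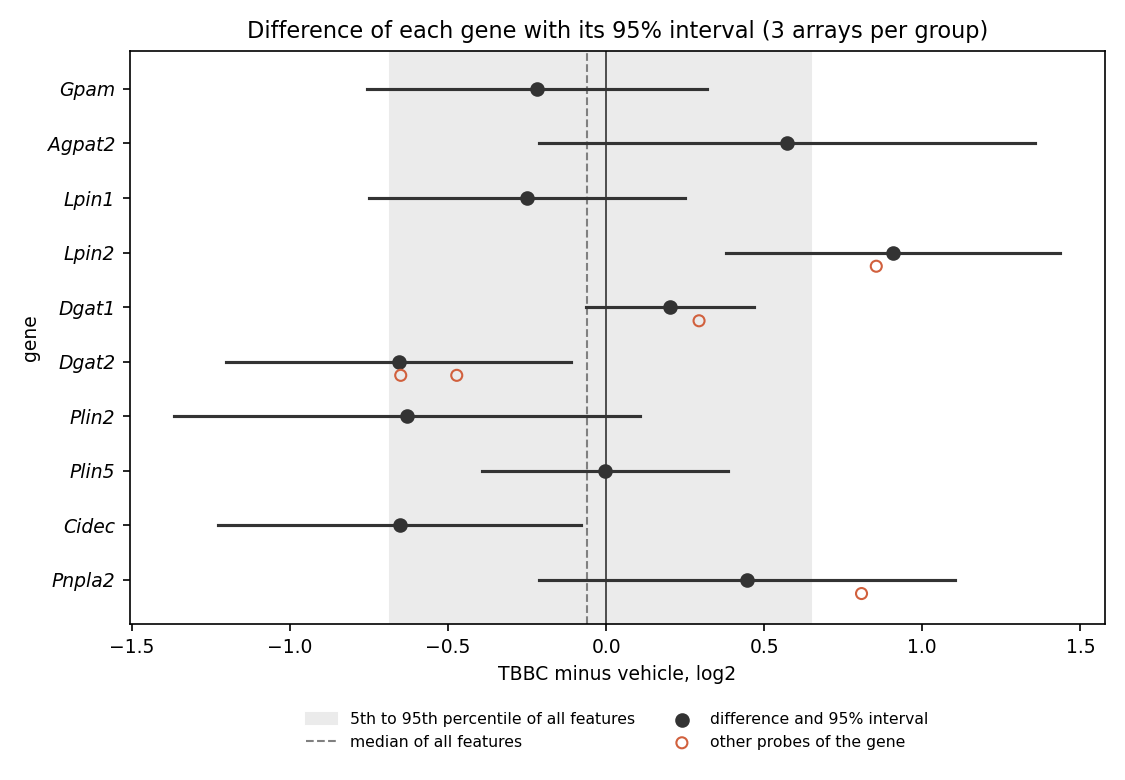
Log2 difference, TBBC minus vehicle, of each gene (filled point) with its unadjusted 95% interval, and of its other probes (open points); the band holds the 5th to 95th percentile of all features (-0.69 to 0.65) and the dashed line is their median. The intervals of Lpin2, Dgat2 and Cidec exclude 0, that of Lpin2 from above and the others from below.

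Of the genes of the droplet surface, Plin2 encodes the perilipin that coats droplets in hepatocytes and is degraded when lipid is scarce. Its values were 6.51, 6.28 and 7.03 with vehicle and 6.44, 5.41 and 6.08 with TBBC. TBBC replicates 2 and 3 lay below all vehicle arrays and TBBC replicate 1 within their range. The difference was -0.63 ± 0.31 (1.55-fold lower in the mean, limma adjusted p = 0.274), and it was -0.35 without TBBC replicate 2 and -0.42 without vehicle replicate 3. Its 95% interval ran from -1.37 to 0.11.

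Cidec encodes a protein at droplet contact sites that moves triglyceride from small to large droplets. It gave 2.77, 2.99 and 2.98 with vehicle and 2.81, 2.05 and 1.93 with TBBC. TBBC replicate 1 lay among the vehicle animals, while the other treated animals lay well below them. The difference was -0.65 ± 0.24 (limma adjusted p = 0.180; 95% interval -1.23 to -0.080). Without TBBC replicate 1 it was -0.92 with an adjusted p of 0.0543, the lowest adjusted p of any of the 10 genes in any alternative setting; over the 18 settings the adjusted p of Cidec ran from 0.0543 to 0.371. Adipocytes also express Cidec strongly. Of 5 adipocyte markers with a probe, the hormones Adipoq and Lep were not well above background on any array, and the summed linear level of the 5 was 5.00 to 9.43 on vehicle arrays and 5.64 to 10.3 on TBBC arrays, in units of the array's 75th percentile. That sum was 96.1% to 99.1% Cfd, which gave 0.11 ± 0.30. The other 2 markers tested were kept only because all 3 TBBC arrays were well above background. That rule favours a positive difference, so their sign is no result. Fabp4, well above background on 1 vehicle array, differed by 1.87 ± 0.74 (3.66-fold, limma adjusted p = 0.200). Retn, well above background on 2 vehicle arrays, differed by 0.53 ± 0.43. The part of these markers in the Cidec values was not tested.

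Plin5, the perilipin that holds droplets next to mitochondria, had the smallest difference. Its values were -1.52, -1.94 and -1.83 with vehicle and -1.99, -1.63 and -1.67 with TBBC. The ranges nearly coincided. The difference was -0.0036 ± 0.16 (limma adjusted p = 0.991), with a 95% interval of -0.39 to 0.39.

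Pnpla2 encodes the lipase that takes the first fatty acid off stored triglyceride. Its brighter probe gave 1.46, 1.43 and 2.37 with vehicle and 1.97, 2.22 and 2.41 with TBBC. Vehicle replicate 3 lay among the treated animals and the other vehicle animals below them. The difference was 0.45 ± 0.27 (1.36-fold, limma adjusted p = 0.366; 95% interval -0.21 to 1.10), and it was 0.75 without vehicle replicate 3 and 0.29 without vehicle replicate 2. The second probe gave 0.15, 0.043 and 0.83 with vehicle and 0.81, 1.27 and 1.36 with TBBC, a difference of 0.81 ± 0.25 with an adjusted p over all probes of 0.130.

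The spread between animals was wide for these genes. The SE of 9 of the 10 lay above the median SE of all features (0.16), and the SEs ran from 0.11 for Dgat1 to 0.33 for Agpat2. The 95% interval stayed within a log2 difference of 1 in either direction for 4 genes (Gpam, Lpin1, Dgat1 and Plin5) and reached beyond it for the other 6. None of the 10 point estimates reached 1, the size of a 2-fold change. A gene that misses the threshold here is not shown to be alike in the 2 groups. Array positions recurred across the genes: vehicle replicate 2 was the lowest vehicle array for 8 of the 10 and TBBC replicate 1 the lowest treated array for 7. Over all features these arrays were the lowest of their group for 29.5% and 35.4%. Vehicle replicate 2 also had the lowest 75th percentile of signal; its part in the values was not tested, beyond the differences without it.

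RefSeq sequences upstream of the gene start were found in the promoter table for 8 of the 10 genes, all but Dgat1 and Dgat2. Shown are the 250 bases before the start used in that table for the gene with the highest difference (Lpin2) and for the droplet genes Plin2 and Cidec, whose mean was lower with TBBC, all from build GRCr8 and 5′ to 3′ on the gene's strand. Capitals mark a match, on either strand, to the E-box CACGTG, the CCAAT box (CCAAT) or the core of the antioxidant response element (TGACNNNGC). The windows are chr9:118530105-118530354 on the plus strand for Lpin2, chr5:106229019-106229268 on the minus strand for Plin2 and chr4:148137116-148137365 on the minus strand for Cidec.
Lpin2: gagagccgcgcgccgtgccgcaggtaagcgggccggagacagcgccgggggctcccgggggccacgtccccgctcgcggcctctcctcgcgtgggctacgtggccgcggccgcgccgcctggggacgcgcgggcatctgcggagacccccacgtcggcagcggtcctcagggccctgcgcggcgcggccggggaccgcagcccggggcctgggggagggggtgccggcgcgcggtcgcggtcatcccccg
Plin2: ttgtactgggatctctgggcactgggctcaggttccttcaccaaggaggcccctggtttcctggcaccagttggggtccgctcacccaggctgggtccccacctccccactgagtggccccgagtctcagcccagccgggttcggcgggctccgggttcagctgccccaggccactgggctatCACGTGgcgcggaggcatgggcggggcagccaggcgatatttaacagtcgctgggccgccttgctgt
Cidec: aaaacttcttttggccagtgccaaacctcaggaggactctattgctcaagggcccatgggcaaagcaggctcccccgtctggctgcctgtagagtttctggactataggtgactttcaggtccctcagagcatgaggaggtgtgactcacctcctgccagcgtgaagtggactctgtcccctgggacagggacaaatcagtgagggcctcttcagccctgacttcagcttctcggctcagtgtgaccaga
The E-box of Plin2 ends 61 bases before the start, and no matches overlapped; a second Plin2 entry, with another start, held none. None of the 3 motifs was found in the windows of Lpin2 and Cidec. Among the 8 genes, the E-box was found in 1 (Plin2), the CCAAT box in 3 (Gpam, Lpin1 and Plin5) and the antioxidant core in 1 (Gpam). Over 33469 windows of the same length, the shares were 5.59%, 34% and 10.1%. A match describes letters only, and the arrays do not show which start was used.

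Outside the 10 genes, 4 lists hold the rest of glycerolipid metabolism, with 43 genes tested of 57 listed. In these lists 1 gene rose, 2 fell and 40 did not pass the limma test, while 3.08% of all features passed. An unadjusted p under 0.05 was found for 14 of the 43, against 23.0% of all features. Whether these shares differ was not tested. The median difference of the 43 genes was 0.078. Of the other glycerolipid synthesis genes (12 tested of 15 listed, median 0.12), 0 rose and 1 fell. The one that fell was Gk, the kinase that turns free glycerol into glycerol 3-phosphate. Its values were 5.29, 5.30 and 5.46 with vehicle and 4.46, 4.02 and 4.46 with TBBC. All treated animals lay below all vehicle animals, and Gk fell by 1.03 ± 0.15 on the log2 scale (2.05-fold, limma adjusted p = 0.0288). Its second probe gave -0.85 ± 0.16. Gpd1, which makes glycerol 3-phosphate from a glycolytic intermediate, differed by 0.27 ± 0.18, and Lpgat1, an acyltransferase of lysophospholipids, by 0.28 ± 0.11.

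In the phospholipid branch (12 tested of 15 listed, median 0.0016), 1 gene rose and 1 fell. Chka encodes the choline kinase that starts phosphatidylcholine synthesis. It gave 3.54, 3.75 and 3.30 with vehicle and 1.80, 0.97 and 1.60 with TBBC, with the groups far apart, and fell by 2.07 ± 0.24 (4.21-fold, limma adjusted p = 0.0160). Its second probe gave -2.23 ± 0.26. Ptdss2 encodes an enzyme that makes phosphatidylserine by exchange of the head group of another phospholipid. It gave 2.80, 2.78 and 2.79 with vehicle and 3.43, 3.96 and 3.99 with TBBC. The vehicle animals were almost equal and all treated animals lay above them, and Ptdss2 rose by 1.01 ± 0.17 (2.01-fold, limma adjusted p = 0.0379); its second probe gave 1.01 ± 0.24.

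None of these 3 calls held in every setting. Of 18 alternative settings, the call of Gk was lost in 9 (adjusted p 0.0129 to 0.0981 over all settings), that of Ptdss2 in 8 (0.0157 to 0.121) and that of Chka in 3 (0.00620 to 0.0687), each time with the same sign. All 3 were lost without vehicle replicate 1 and without vehicle replicate 2. In these fits the differences moved little: -1.06 and -1.06 for Gk, -2.07 and -1.96 for Chka, 1.01 and 1.00 for Ptdss2. Over all features the number past the threshold fell from 902 to 137 and 214. With all 6 arrays kept, all 3 were lost with replicate number as a block (limma adjusted p 0.0693 for Gk, 0.0592 for Chka, 0.0843 for Ptdss2). Calls were also lost without a filter on dim probes (Gk 0.0754, Ptdss2 0.0931), with spike-in scaling (Gk 0.0896) and with the mean of a gene's probes (Ptdss2 0.0545).

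Of the other lipid droplet genes (12 tested of 18 listed, median 0.11) and the other lipolysis genes (7 tested of 9 listed, median 0.010), 0 rose and 0 fell by the limma test, against 3.08% of all features past it. At an unadjusted p under 0.05 there were 5 and 2, against 23.0% of all features. Hsd17b11, a dehydrogenase found on droplets, differed by 0.078 ± 0.13 and Fitm2, a protein of droplet formation at the endoplasmic reticulum, by 0.30 ± 0.13. G0s2, which binds and inhibits the Pnpla2 lipase, gave 8.56, 7.28 and 8.55 with vehicle and 7.62, 8.14 and 6.07 with TBBC, with a difference of -0.86 ± 0.60 and overlapping groups. With 1 array left out it ran from -1.29 without TBBC replicate 2 to -0.25 without TBBC replicate 3. Ces1d, a carboxylesterase that hydrolyses triglyceride, differed by 0.21 ± 0.14.

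Cidea, a relative of Cidec that also joins droplets and is best known from brown fat, was chosen for mention with its values known. It gave 2.89, 4.19 and 3.82 with vehicle and 5.65, 5.16 and 5.23 with TBBC. Every treated animal lay above every vehicle animal. The difference was 1.71 ± 0.34 (3.27-fold, 95% interval 0.90 to 2.52), just short of the threshold (limma adjusted p = 0.0521). The second Cidea probe gave 1.71 ± 0.25 with an adjusted p over all probes of 0.0260. The adjusted p of Cidea over the 18 settings ran from 0.0194 to 0.138 and was under 0.05 in 7 of them. Acsl3, an acyl-CoA synthetase of growing droplets, was singled out in the same way and differed by 1.10 ± 0.30 (limma adjusted p = 0.106). Hsd17b13, a dehydrogenase of hepatocyte droplets chosen likewise, had the opposite sign: it gave 5.90, 5.42 and 5.52 with vehicle and 4.79, 5.17 and 4.53 with TBBC, with the groups apart and a difference of -0.79 ± 0.21 (limma adjusted p = 0.0987).

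**Figure D3:**
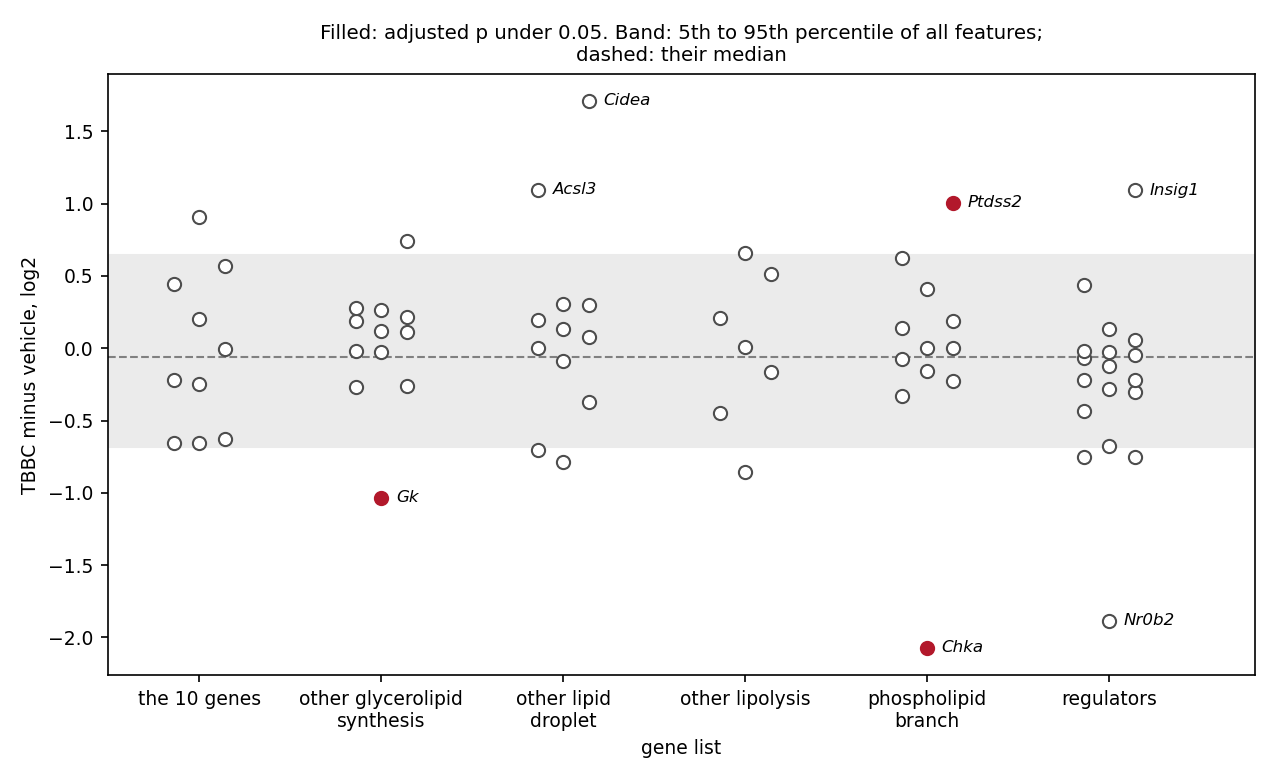
Log2 difference, TBBC minus vehicle, of each tested gene in the set of 10 and in 5 further lists; filled points passed the limma test, the band holds the 5th to 95th percentile of all features and the dashed line is their median. Gk and Chka lie below the band and Ptdss2 above it, and the open points of Cidea, Acsl3, Insig1 and Nr0b2 lie beyond a difference of 1 without passing.

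Of 18 tested regulators of hepatic lipid genes (19 listed, median -0.17), 0 rose and 0 fell by the limma test, against 3.08% of all features past it. An unadjusted p under 0.05 was found for 4, against 23.0% of all features. Creb3l3, a transcription factor of the endoplasmic reticulum that acts on triglyceride genes, differed by 0.057 ± 0.13, and Nr1i2, the xenobiotic receptor PXR, by -0.027 ± 0.16. The receptor corepressor Nr0b2 (-1.89 ± 0.42, adjusted p = 0.0705) and Insig1 (1.09 ± 0.38, adjusted p = 0.164), which holds the SREBP factors in the endoplasmic reticulum, had the largest differences and were singled out after their values were seen.

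Other cell types of the liver also hold lipid, stellate cells above all, and in whole liver fewer cells of a type and less RNA per cell cannot be told apart. All 7 stellate cell markers had a negative difference, as did 16896 of all 29326 features. Pdgfrb alone had the groups apart and passed the limma test (-0.73 ± 0.14, adjusted p = 0.0461). Over all features 18.8% had the groups apart and lower with TBBC, and 3.08% passed the test. Whether the stellate cell markers differ from these shares was not tested. Other markers are given as sums in units of the 75th percentile. The 8 hepatocyte markers gave 5695 to 6673 with vehicle and 4899 to 5017 with TBBC. Of these markers 7 had a negative difference, and 5 had the groups apart and lower with TBBC, against 18.8% of all features. Ahsg alone passed the limma test (-0.83 ± 0.12, adjusted p = 0.0292), against 3.08% of all features. Apoa1 had a larger difference (-0.9996 ± 0.19) and just missed the threshold (limma adjusted p = 0.05004). Whether the hepatocyte markers differ from these shares was not tested. Of the 4 cholangiocyte markers, 2 of them well above background on all arrays, Epcam rose by 1.83 ± 0.21 and made up 58.2% to 90.2% of the sum, which was 1.02 to 1.21 with vehicle and 2.71 to 4.03 with TBBC. The groups overlapped for the other 3, with differences of 0.44 ± 0.39 for Krt19, -0.33 ± 0.24 for Krt7 and 1.16 ± 0.84 for Cftr. Cftr was kept only through the TBBC arrays (well above background on 1 vehicle array). Krt7 was kept only through the vehicle arrays (well above background on 2 TBBC arrays). The ranges of the 6 Kupffer cell markers (45.1 to 104 and 52.9 to 108) and of 4 sinusoidal endothelial markers (30.3 to 58.7 and 41.0 to 47.2) overlapped. The 6 markers of T and B cells gave 1.10 to 1.21 with vehicle and 0.467 to 0.995 with TBBC, and Cd3e and Cd2 were not well above background on any array. The part of these markers in the values of the 10 genes was not tested.

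**Figure D4:**
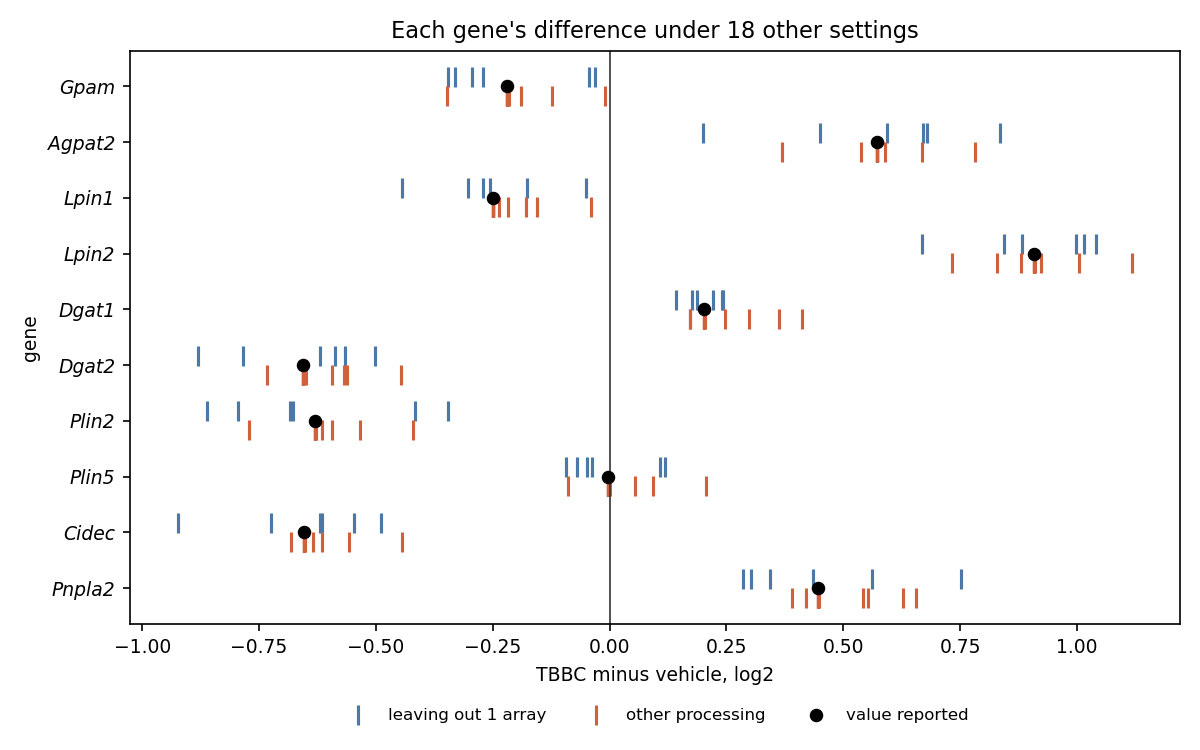
Log2 difference, TBBC minus vehicle, of each of the 10 genes as reported (black point), with each array left out in turn (blue ticks) and under 12 other processing settings (orange ticks). The sign of 9 genes is the same throughout, and that of Plin5, which lies at 0, is not. Settings that change only the filter, the moderation or the block leave the difference as reported.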

How the data were processed

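Spot intensity, on a linear scale, was deposited by the authors as scanner output of Agilent Feature Extraction 10.7.1.1 per the file headers (10.7 per the submitters' processing notes), with background already subtracted. From it, log2 processed signal minus the array's 75th percentile over probes other than controls was computed. Left out were 1439 control spots and 25 probes with an outlier flag; a probe had to be well above background on every array of 1 group or both (37222 did). Accessions were named through RefSeq (GRCr8; array design rn4), which named 28206 probes. Each gene was its probe with the highest mean, giving 29326 features. The test was limma 3.58.1 (R 4.3.3), with lmFit and eBayes and no covariate. The fitting function was tested on simulated data. The summed level of stellate cell markers is not reported here.

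The 10 genes and the lists were chosen with earlier results of these data known. Of each list, every gene past the threshold was named and, where fewer than 2 passed, the 2 with the highest signal. The alternatives were other scalings, background correction, filters, probe rules, moderation, array weights, a replicate block, and each array left out. The deposited intensity table equals the processed signal times a constant per array, so scale, centring and direction are known; its column medians were 0.101, 0.108, 0.103, 0.0977, 0.0972 and 0.0974 in the order of vehicle and TBBC replicates.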

Additional observations from a re-analysis of the deposited data

How the results depend on the processing

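None of the 10 genes passed in any of the 18 alternative settings, and 9 kept their sign in all of them. The sign could not turn in every setting. The differences were the same by construction with other filters, every probe on its own, other moderation and the replicate block. With the mean of a gene's probes this held for the genes with 1 probe. Those settings could change only the adjusted p. The sign of Plin5 turned with median centring (0.092), quantile normalization (0.055), spike-in scaling (0.21) and normexp (0.0012), and over the fits without 1 array its difference ran from -0.092 to 0.12. Spike-in scaling moved the median of all features from -0.062 to 0.15; with it Lpin2 was at 1.12 and Dgat2 at -0.45. The 902 features past the threshold (492 higher, 410 lower) became 1589 with normexp, 194 without a filter on dim probes and 211 with the replicate block, and 104 to 365 with 1 array left out, the lowest without TBBC replicate 2. The split was 746 higher and 306 lower with median centring and 597 and 143 with spike-in scaling. The 3 genes called in the 4 further lists became 5 with normexp, 1 without the filter, 0 with the replicate block (adjusted p 0.0693 for Gk, 0.0592 for Chka and 0.0843 for Ptdss2) and 0 to 2 with 1 array left out. The difference of Nr1i2 turned to 0.069 with median centring, 0.18 with spike-in scaling, 0.026 with normexp, 0.078 with the mean of its probes and 0.037 with array weights, and ran from -0.15 to 0.098 with 1 array left out; that of Creb3l3 ran from -0.041 to 0.14. The cause was not tested, except that fits without an array have fewer samples. The deviations of same-numbered arrays correlated at 0.0035, -0.022 and 0.14 for replicates 1 to 3, the last being the highest of all pairs. Vehicle replicate 1 correlated best with TBBC replicate 2 (0.082). Correlations this weak cannot decide whether the same replicate number pairs animals, so the block rests on the number alone. With 3 arrays per group the smallest absolute difference past the threshold over all features was 0.53, and the spread between animals set which differences of that size passed. The slide could not be fitted as a block.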
